A study of Homo sapiens with 2 samples.

Results

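Regions that differed in SMARCA4 ChIP-seq tags lay not only at promoters but also far inside genes. Described here are 1628 regions, chosen by the following rule, in which parental TOV21G cells had more FLAG-SMARCA4 ChIP-seq tags than cells resistant to an EZH2 inhibitor (EIR), which lay more than 5 kb from the transcription starting site (TSS) of any transcript, and whose centre lay inside the body of a protein-coding gene. They are 1628 of the 9596 parental-higher regions on chromosomes 1 to 22 and X without 10, and of the 12896 regions of the series in either direction and on all chromosomes. ChIP-seq sequences the DNA that comes down with a protein, in this case SMARCA4 pulled down by its FLAG tag, and counts the aligned reads (tags) at each place. No input library served as control, so occupancy and background cannot be told apart in a difference of tags. The parental cells are TOV21G, an ovarian clear cell carcinoma line with mutated *ARID1A*. The EIR cells are a single clone, number 3 in the labels, grown out of TOV21G in GSK126, an EZH2 inhibitor, raised in steps from 5 to 20 μM. In both, SMARCA4 carried the FLAG epitope at its own locus, and both had the same anti-Flag ChIP. Each condition has 1 library, with about 25600000 tags in parental cells and 35000000 in the EIR clone, so there is no spread between replicates and no test of the conditions. The intervals given for folds cover counting error only, those of shares, medians and densities treat regions or genes as independent draws, and all of them are 95% intervals.

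SMARCA4 is, in turn with its paralog SMARCA2, the ATPase of SWI/SNF, a complex that slides and evicts nucleosomes. Outside promoters it is known to act at enhancers, stretches of open DNA that are often found in introns and raise transcription of the gene around them or of genes farther away. Enhancers are opened by sequence-specific factors, among them AP-1 (FOS-JUN dimers) and the TEAD proteins of the Hippo pathway, and ARID1A-containing SWI/SNF is known to work with AP-1 there. The lists hold no measure of histone marks or accessibility, so whether a region here is an enhancer was not tested.

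The AP-1 letters TGACTCA, searched on both strands, lay in the central 500 bp of 219 of the 1628 regions. The following stretches come from the 5 of these with the most parental tags and are shown because AP-1 was, of the 11 motifs searched, the one found in most regions. They are forward-strand hg19 sequence with 30 bases on either side of the match, which is in capitals.
*WWP2*, chr16:69865458-69865524: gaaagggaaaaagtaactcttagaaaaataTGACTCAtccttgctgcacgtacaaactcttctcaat
*PRKAG2*, chr7:151384773-151384839: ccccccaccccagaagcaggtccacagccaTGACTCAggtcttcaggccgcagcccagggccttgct
*STK11*, chr19:1184023-1184089: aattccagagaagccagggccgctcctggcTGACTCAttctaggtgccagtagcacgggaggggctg
*KIF26B*, chr1:245748701-245748767: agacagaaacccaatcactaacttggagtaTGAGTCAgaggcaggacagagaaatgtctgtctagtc
*ARHGEF37*, chr5:148943913-148943979: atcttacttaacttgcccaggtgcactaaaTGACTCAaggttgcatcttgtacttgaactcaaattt

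In *WWP2*, a ubiquitin ligase gene, the region with this match lay in intron 4 and had 81 parental tags against 30.1 EIR tags after scaling to the parental library. In *PRKAG2*, which encodes a regulatory subunit of AMPK, it lay in intron 3 with 78 against 42.5 tags, and its central 500 bp held 2 matches. The region in *STK11*, the gene of the AMPK-activating kinase LKB1, had 77 against 38.9 tags. These 3 regions sat at folds of 2.69 (1.83 to 4.03), 1.83 (1.29 to 2.62) and 1.98 (1.38 to 2.87), all under the median of the regions. *KIF26B*, a kinesin family gene, had 70 against 30.8 tags in intron 5, and *ARHGEF37*, a guanine nucleotide exchange factor gene, had 68 against 27.9. Each match lay between 156 and 217 bp from the centre of its region.

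The region with the most tags, in *BCOR*, and those with the largest folds, in *SMURF1* and *XPR1*, had no AP-1 letters in the central 500 bp and differed in base composition. Their central 200 bases follow as forward-strand hg19 sequence with CpG dinucleotides in capitals.
*BCOR*, chrX:39964757-39964956: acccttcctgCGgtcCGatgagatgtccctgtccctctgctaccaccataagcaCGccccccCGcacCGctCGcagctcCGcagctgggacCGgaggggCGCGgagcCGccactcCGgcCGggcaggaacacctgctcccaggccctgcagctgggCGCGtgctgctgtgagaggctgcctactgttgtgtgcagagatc
*SMURF1*, chr7:98710462-98710661: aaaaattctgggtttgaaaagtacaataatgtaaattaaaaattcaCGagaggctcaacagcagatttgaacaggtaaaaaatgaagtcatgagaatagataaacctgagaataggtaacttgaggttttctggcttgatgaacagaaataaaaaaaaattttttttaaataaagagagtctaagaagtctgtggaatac
*XPR1*, chr1:180818414-180818613: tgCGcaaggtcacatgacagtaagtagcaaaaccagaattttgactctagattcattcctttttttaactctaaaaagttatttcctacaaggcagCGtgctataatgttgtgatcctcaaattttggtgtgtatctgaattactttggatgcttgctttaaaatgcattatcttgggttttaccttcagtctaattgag

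The stretch from *BCOR*, a BCL6 corepressor gene, held 15 CpG dinucleotides and 69% G and C, whereas those of *SMURF1* and *XPR1* held 1 and 2 CpG dinucleotides and 29.5% and 35% G and C. The *BCOR* region, 2236 bp wide and 5319 bp from the nearest TSS, which is one of *BCOR*, had 168 parental tags against 70.4 EIR tags, the most of any of the 1628 (fold 2.39, 1.85 to 3.10). The regions of *SMURF1*, a ubiquitin ligase gene of the TGF-β pathway, and *XPR1*, a phosphate exporter gene, each had 18 tags against 1 EIR tag, 0.7 after scaling. Their fold of 24.6 was the largest, with an interval of 3.88 to 1023 that shows how little 1 tag fixes it.

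The 1628 regions were narrow and weakly covered in either library. Parental tags ran from 15 to 168 with a median of 21 and quartiles of 18 and 27, and EIR tags ran from 1 to 100 before scaling with a median of 6.6 after it. The median fold was 3.07 (3.07 to 3.12), with quartiles of 2.73 and 3.64, and since the parental over EIR contrast chose the regions these folds are a description. A fold of at least 4 was found in 273 regions (16.8%), beside 10.3% of all regions of both lists on the chromosomes used and 12% of the parental-higher ones. The share was 15.6% in distal regions outside coding genes and 14.5% at 1 to 5 kb from a TSS. In all, 27 regions had a fold under 2, 5 had a single EIR tag and 0 had none. The regions covered 0.984 Mb, with 70.2% of them at the 500 bp width of the caller and the widest at 2908 bp, at 42.7 parental tags per kb against 14.6 scaled EIR tags per kb.

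**Figure D1:**
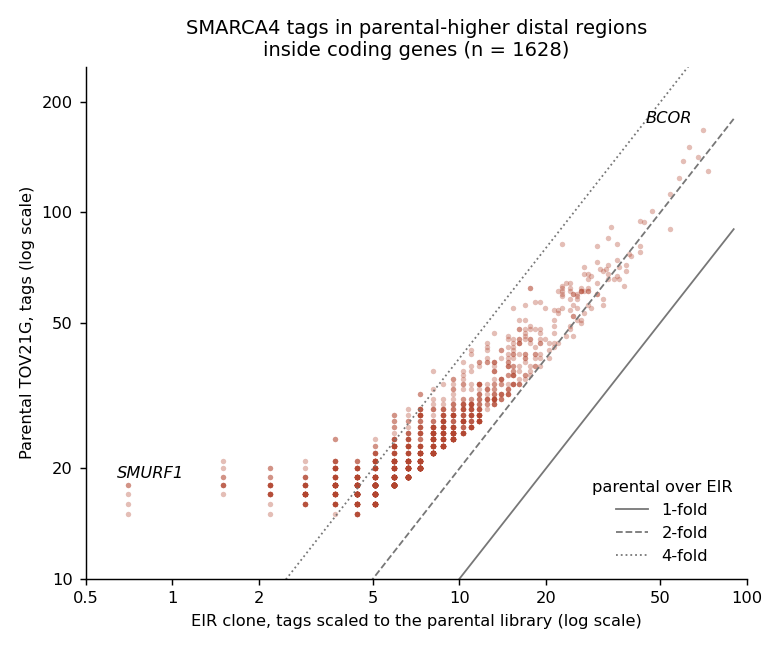
Parental tags (vertical) against EIR tags scaled to the parental library (horizontal), on log axes, with 1 point for each of the 1628 regions and lines at equal tags, a fold of 2 and a fold of 4. Points step in columns on the left because EIR tags are whole, no region of 15 to 20 tags has a fold under 2.73, and *BCOR* has the most tags.

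Folds fell as tags rose. Regions of 15 to 20 parental tags had a median fold of 3.51 and none under 2.73, those of 21 to 30 tags a median of 2.94, those of 31 to 50 tags 2.57, those of 51 to 100 tags 2.31, and the 8 with more than 100 tags 2.15. A region with few tags entered the list only with a large fold, so fold and strength are tied by the calling. Parental-higher distal regions outside coding genes had a median of 21 parental tags and a median fold of 3.07. At 1 to 5 kb from a TSS the medians were 22 tags and 3.07, so the regions inside genes were like these classes. Parental-higher regions within 1 kb of a TSS had a median of 46 parental tags and a median fold of 2.59. In the same 5 tag classes their medians were 3.31, 2.85, 2.39, 2.32 and 2.42, above that of the regions inside genes in the classes of 51 to 100 tags and of more than 100 and below it in the other 3.

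Strength is taken here as tags per region whatever its width, so wide regions rank high. The strongest regions after *BCOR* were a second *BCOR* region of 151 against 63.0 tags, 9899 bp from a TSS, and a region in intron 3 of *PLEKHA2*, which encodes a phosphoinositide-binding adaptor, of 142 against 67.4 tags. A region in intron 1 of *ARHGAP18*, a GTPase-activating protein gene, had 138 against 60.1 tags and lay 45606 bp from the nearest TSS. The fifth, in intron 2 of *BABAM2*, had 130 against 73.3 tags. These 5 had folds between 1.77 and 2.40, below the median of the regions. They were 1352 to 2892 bp wide. Per kb they had from 47.7 (*ARHGAP18*) to 111.7 parental tags (the second *BCOR* region), beside 42.7 over all the regions. After *XPR1* and *SMURF1*, the next folds were those of *ADGRV1*, an adhesion receptor gene, with 17 tags against 1 (23.2), *SRGAP1*, a Slit-Robo pathway gene, with 16 against 1 (21.8) and *MAP4*, a microtubule protein gene, with 15 against 1 (20.5). All 5 regions with the largest folds were thus among the weakest and rested on 1 EIR tag. The smallest folds were those of regions in *VMP1*, an autophagy gene (90 against 54.2 tags, 1.66), *GLIS3*, a transcription factor gene (63 against 37.4 tags, 1.69) and the strong *BABAM2* region.

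The distance limit of 5 kb cut through a continuous range. Nearest inside it was a region in intron 1 of *SMARCA4* itself, at 5007 bp with 20 against 5.1 tags (fold 3.90), and a region in *SDK1* lay at 5016 bp (20 against 7.3). Nearest outside it were *NHSL1* at 4998 bp (18 against 5.9), *KIFC3* at 4997 bp (20 against 7.3) and *CSGALNACT1* at 4996 bp (18 against 5.1). The tags on either side of the limit were of the same order. The median distance of the 1628 regions was 14283 bp, with quartiles of 8511 and 25447 bp, and the farthest lay 175718 bp from any TSS.

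Distal regions inside coding genes were more one-sided than those outside. Inside, 1628 distal regions were parental-higher and 313 EIR-higher, so that 83.9% (82.2 to 85.4) had more tags in parental cells, a ratio of 5.20. Outside coding genes the numbers were 1528 and 513, or 74.9% (72.9 to 76.7), a ratio of 2.98. At 1 to 5 kb from a TSS 81.1% (79.3 to 82.7) were parental-higher, an interval that overlaps that inside genes. Within 1 kb of a TSS it was 91.6% (90.9 to 92.4), so regions nearer to TSSs were as one-sided or more so. Assembly gaps, beside which repeats are often unresolved, lay within 1 Mb of 9 of the parental-higher regions inside genes and of 69 of the EIR-higher regions outside, and 44 of the EIR-higher regions outside were on chromosome 21. Without the regions within 1 Mb of gaps the shares were 83.8% (82.1 to 85.4) inside and 77.4% (75.5 to 79.2) outside. The share was the larger inside on 19 of the 22 chromosomes.

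Per Mb of sequence far enough from every TSS to hold such a region, there were 2.09 parental-higher regions (1.99 to 2.19) inside coding genes and 1.31 (1.25 to 1.38) outside. For EIR-higher regions the densities were 0.401 (0.358 to 0.448) inside and 0.440 (0.403 to 0.480) outside, with intervals that overlap. The outside value counts the 69 EIR-higher regions within 1 Mb of gaps, and densities without such regions were not computed. Among chromosomes the density of the parental-higher regions inside genes ran from 1.26 per Mb on X to 3.81 on 17, with a median of 2.13. The median fold per chromosome stayed between 2.86 and 3.33. The copy number of each chromosome in the cells was not measured here, and its part in these densities was not tested.

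Inside genes, intron 1 held more regions than its share of the sequence. By the canonical transcript of each gene, 582 regions (35.7%, 33.5 to 38.1) had their centre in intron 1, which makes up 19.5% of the eligible sequence, and 843 (51.8%, 49.4 to 54.2) in later introns, which make up 64.6%. The densities were 3.82 per Mb (3.52 to 4.14) in intron 1 and 1.67 (1.56 to 1.79) in later introns. Exons held 45 regions (2.76%, 2.07 to 3.68), 24 of them coding and 21 in UTRs, beside 3.41% of the sequence. The other 158 (9.71%) lay in a gene body but outside its canonical transcript, as did the *BCOR* regions.

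Intron 1 is also the intron nearest to the 5′ end, so the densities were set out by distance to the nearest TSS of any gene. At 5 to 10 kb they were 4.44 regions per Mb (3.84 to 5.10) in intron 1 and 2.02 (1.79 to 2.29) in later introns. At 10 to 20 kb they were 4.47 (3.88 to 5.14) and 1.80 (1.58 to 2.04), and at 20 to 50 kb 3.41 (2.87 to 4.01) and 1.64 (1.44 to 1.87). Beyond 50 kb they were 1.96 (1.42 to 2.66) and 1.01 (0.808 to 1.24). Intron 1 thus had the higher density in each of the 4 classes, with intervals that did not overlap, and both densities were lowest beyond 50 kb. EIR-higher distal regions had 0.623 per Mb (0.504 to 0.762) in intron 1 and 0.328 (0.280 to 0.382) in later introns, so that intron 1 was the denser in either direction.

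**Figure D2:**
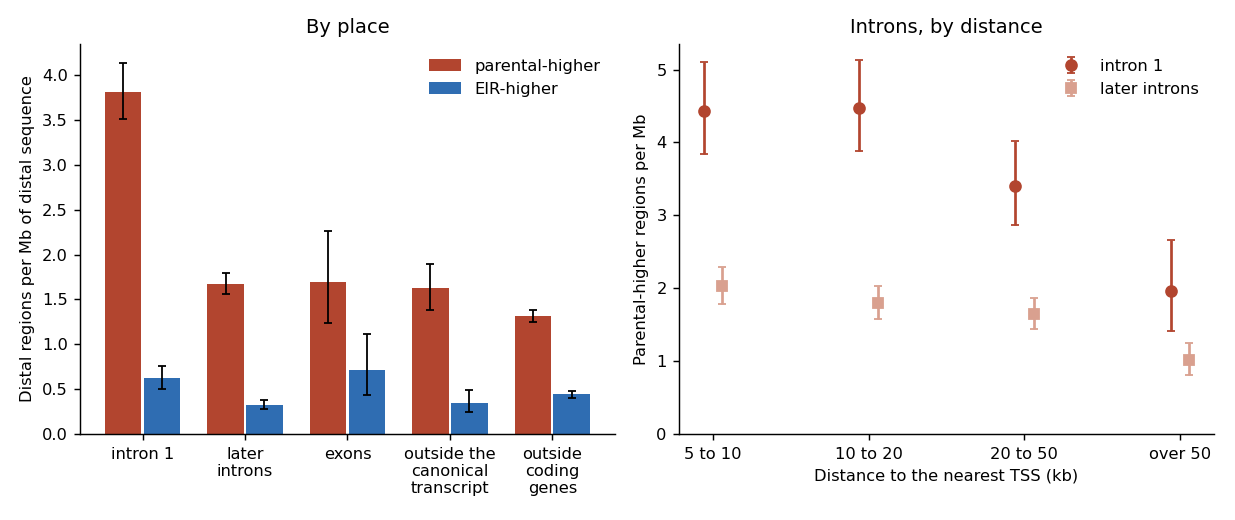
Left, distal regions per Mb of distal sequence (vertical, bars from 0) by place in or outside coding genes, parental-higher in red and EIR-higher in blue. Right, parental-higher regions per Mb in intron 1 (circles) and later introns (squares) by distance to the nearest TSS. Whiskers are exact 95% Poisson intervals, and intron 1 stands at 3.82 per Mb against 1.67 in later introns.

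The 1628 regions lay in 865 host genes, 4.47% of 19356 protein-coding genes, and 74 regions lay in 2 genes at once. Of the hosts 523 had 1 region, 163 had 2 and 179 had at least 3, and these 179 held 819 of the regions. Hosts were long, with a median of 151 kb against 26.7 kb for all coding genes. The share of genes that host rose from 0.783% under 50 kb to 13.1% at 100 to 200 kb and 24.8% above 400 kb, while regions per Mb of eligible sequence were highest at 100 to 200 kb (2.92) and lowest above 400 kb (1.29). Longer genes thus held a region more often, but the longest had the fewest per Mb.

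*PDE4D*, which encodes a phosphodiesterase that degrades cAMP, had the most regions, 20 along its 1553 kb on chromosome 5 (chr5:58264865-59817947, minus strand). Its regions had 18 to 68 parental tags against 3.7 to 33.0 scaled EIR tags, and 538 against 192.8 in sum (fold 2.79, 2.40 to 3.25). Of the 20, 11 lay in intron 1, and the strongest lay in intron 5, 52318 bp from a TSS. *PDE4D* also held 1 EIR-higher distal region.

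*COBLL1*, a relative of the actin nucleator cordon-bleu, had 14 regions within 190.1 kb (chr2:165510134-165700189, minus strand) and was also among the densest genes, at 7.37 regions per 100 kb. Of these, 12 lay in intron 2, and its tags ran from 16 to 74 in parental cells against 2.2 to 35.2 in the EIR clone. Its sum was 431 against 144.4 tags (fold 2.98, 2.52 to 3.55). In 2 of its regions only 3 EIR tags were found against 19 and 18 parental tags, folds of 8.64 and 8.18. At the *COBLL1* promoter the strongest parental-higher region had 23 against 8.1 tags, weaker than the strongest region inside the gene.

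*RAD51B*, a gene of homologous recombination, had 14 regions (chr14:68286496-69196935, plus strand), all weak, with 16 to 30 tags against 4.4 to 13.2, and also 3 EIR-higher distal regions. *BABAM2*, a gene of the BRCA1-A complex, had 12 (17 to 130 tags against 3.7 to 73.3), and *MRPL33*, a mitochondrial ribosomal protein gene, had 11. The annotated bodies of *BABAM2* and *MRPL33* overlap, they share 7 of these regions, and all 11 lay outside the canonical transcript of *MRPL33*. *NALF1*, an auxiliary gene of the NALCN sodium channel, had 11 regions, all in intron 1 (18 to 54 tags against 3.7 to 24.2). *CAMTA1*, a calmodulin-binding transcription activator gene, had 11, none in intron 1 (17 to 36 against 3.7 to 16.1), beside 4 EIR-higher distal regions. *KAZN*, whose product is found at desmosomes, had 11 regions, 7 of them in intron 1 (16 to 32 against 5.1 to 11.7). The summed folds of these 6 genes lay between 2.39 and 3.01.

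Per 100 kb of gene body, among genes with at least 4 regions, the densest were *YWHAE*, which encodes 14-3-3 epsilon (8.94), *IGFBP7*, an insulin-like growth factor binding protein gene (7.54), *COBLL1*, *LGR4*, a receptor gene for R-spondins (6.55) and *GPRIN3*, of a family of G protein-regulated inducers of neurite outgrowth (5.60). *YWHAE* had 5 regions of 19 to 24 tags against 5.1 to 8.8, *IGFBP7* had 6 of 19 to 37 against 3.7 to 15.4, and *GPRIN3* had 4 of 18 to 62 against 4.4 to 22.7. In these 3 genes every region lay in intron 1. *LGR4* had 7 regions of 20 to 34 tags against 5.9 to 13.2, spread over introns 1 to 3.

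**Figure D3:**
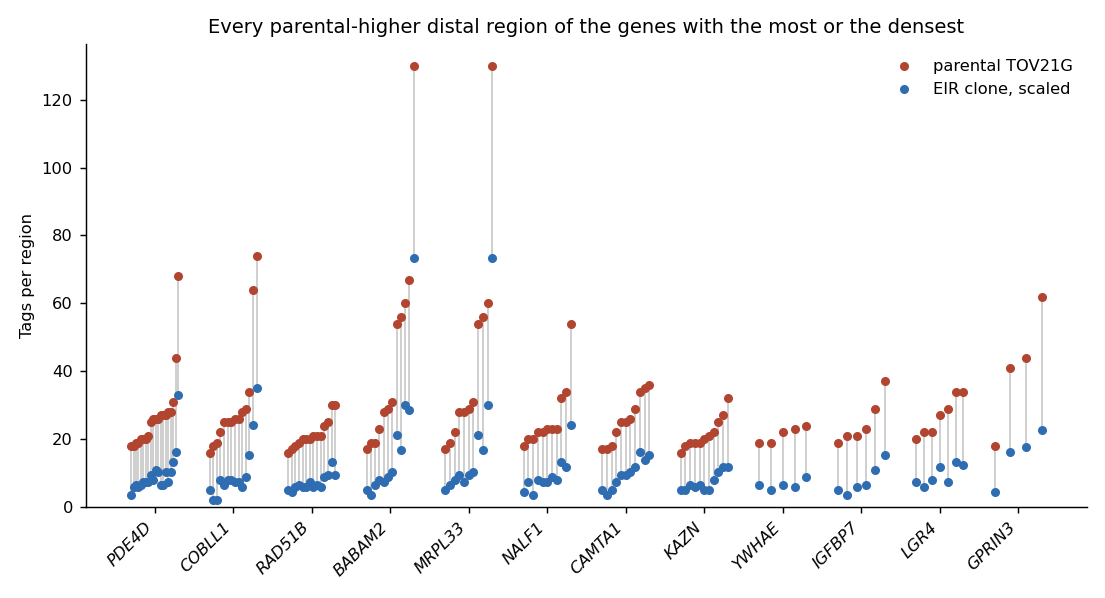
Tags per region (vertical, linear from 0) for every region of the genes with the most regions and of those with the most per 100 kb, with parental tags in red and scaled EIR tags in blue joined by a line and regions sorted by parental tags within a gene. Red lies above blue in each region because the regions were chosen for it, most regions lie between 15 and 40 parental tags, and a region shared by *BABAM2* and *MRPL33* at 130 tags stands highest.

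Some of the regions were neighbours. Joined at gaps of at most 12.5 kb, they formed 1242 groups, of which 985 were single regions and 257 held 643 regions (39.5%) between them. This share was not computed for other classes of regions, so it cannot be called high or low. The largest groups had 6 regions each. In *ZMYND8*, a chromatin reader gene, 6 regions within 13.7 kb had 159 tags against 52.8 (fold 3.01, 2.27 to 4.04), and in *TMC1*, a hair cell channel gene, 6 within 17.5 kb had 143 against 42.5 (3.36, 2.46 to 4.65). In *COBLL1*, 6 within 20.8 kb had 132 against 29.3 (4.50, 3.14 to 6.58). A group of 5 in *ARHGAP18* within 18.9 kb had the most tags of the groups of 5, 226 against 87.2, of which 138 came from its strong region.

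Host genes often had a parental-higher region at their promoter too. A region within 1 kb of a TSS of the gene was listed for 474 of the 865 hosts (54.8%, 51.5 to 58.1), against 22.8% of all coding genes. An EIR-higher one was listed for 10 hosts. The share of all coding genes with an EIR-higher one was not computed, so these 10 cannot be called few or many. Among genes of 100 to 200 kb the shares were 57.2% of 269 hosts and 32.7% of 1790 other genes, and above 400 kb they were 58.3% of 120 and 17.6% of 364. In the 474 hosts the strongest promoter region had a median of 70 tags and a fold of 2.43, and the strongest region inside the gene had a median of 24 tags. The region inside the gene was the stronger in 60 of the 474. An EIR-higher distal region was found in 54 hosts, which is 6.24% of hosts, beside 1.48% of all coding genes, and 18.8% of the 287 genes with such a region. These shares were not set out by gene length.

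Genes of 10 pathways and complexes were then counted. Hosts are long genes, and the lists differ in length, with medians from 18.8 kb (BCL2 family) to 116 kb (focal adhesion and actin). No test was made of any list. All coding genes had 4.47% hosts and 2.10 regions per Mb of eligible sequence. Those of 50 to 100 kb had 5.82% and 2.35, and those of 100 to 200 kb had 13.1% and 2.92.

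Genes of focal adhesions and the actin skeleton, through which cells hold the matrix, were hosts most often, at 14 of 40 (35%, 22.1 to 50.5, median length 116 kb) and 7.97 regions per Mb (5.70 to 10.9). *TRIO*, a guanine nucleotide exchange factor gene, had 7 regions, all in intron 1, of 18 to 43 tags (166 against 59.4 in sum). *NEDD9*, a scaffold gene of focal adhesion kinase signalling, had 5 (159 against 57.9), and *TNS3*, which encodes a tensin that links actin to integrins, had 4 (177 against 74.8). Their summed folds were 2.80 (2.13 to 3.69), 2.75 (2.08 to 3.64) and 2.37 (1.84 to 3.05).

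For receptor kinases, RAS and PI3K the count was 9 of 44 (20.5%, 11.2 to 34.5, median length 105 kb), at 6.48 regions per Mb (4.19 to 9.56). *ERBB4*, an EGFR family receptor gene, had 7 regions, of which 6 had 17 to 21 tags and the other 76 against 39.6. *MET*, the hepatocyte growth factor receptor gene, had 5 regions of 16 to 38 tags (127 against 47.7 in sum), 1 of them over exon 10, and *RPTOR*, an mTORC1 subunit gene, had 5 of 19 to 32 (121 against 44.7). In the TGF-β, BMP and SMAD list 8 of 34 genes were hosts (23.5%, 12.4 to 39.996, median length 77.0 kb), at 8.71 regions per Mb (5.16 to 13.8). *SMAD6*, an inhibitory SMAD gene, had 4 regions within intron 3 of 19 to 44 tags (136 against 55.0), *SMURF2*, which encodes a ubiquitin ligase of SMADs and their receptors, had 4 in intron 1 of 19 to 21 (78 against 21.99) and *SMAD3*, a TGF-β effector gene, had 3 in intron 1 of 21 to 25 (68 against 22.7). Of the 8 hosts 7 also had a parental-higher promoter region.

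In the Wnt list 4 of 33 genes were hosts (12.1%, 4.82 to 27.3), at 8.11 regions per Mb (4.73 to 13.0). *ZNRF3*, a ubiquitin ligase gene that removes Wnt receptors, had 7 regions of 16 to 95 tags (220 against 82.1 in sum), *LGR4*, whose product counters *ZNRF3*, had 7, and *WNT7B*, a ligand gene, had 2 of 18 tags. In the Hippo-YAP and AP-1 list 5 of 37 were hosts (13.5%, 5.91 to 28.0), led by *TEAD1*, a DNA-binding partner of YAP, with 6 regions of 17 to 32 tags (148 against 52.8), *WWTR1*, the TAZ gene, with 2 (50 against 16.1) and *NF2*, an upstream activator gene of the pathway, with 1 (28 against 11.0). All 5 also had a parental-higher promoter region.

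Of 29 SWI/SNF genes 3 were hosts (10.3%, 3.58 to 26.4). *SMARCA4* had 2 regions in intron 1, each of 20 parental tags, against 5.1 and 4.4 EIR tags (folds 3.90, 1.58 to 10.9, and 4.55, 1.76 to 13.8). *BICRA*, of the non-canonical complex, had 1 (26 against 11.0) and *BCL7A* had 1 (17 against 5.1). Of 14 genes of PRC2 and the H3K27 demethylases, *MTF2*, a PRC2 accessory gene, had 1 region of 18 against 5.9 tags. Of 21 BCL2 family genes 2 were hosts. *BCL2L1*, the gene of the anti-apoptotic BCL-xL, had 2 regions in intron 2 of 51 against 16.9 and 20 against 7.3 tags (folds 3.02, 1.82 to 5.19, and 2.73, 1.22 to 6.53), and *BMF*, a pro-apoptotic gene, had 1 of 40 against 19.1 (2.10, 1.25 to 3.58). In the extracellular matrix list 3 of 35 were hosts, with 5 regions in *COL4A2* (18 to 29 tags) and 4 in *LAMC1* (17 to 24), both basement membrane genes, and 1 in *TNC*, the tenascin C gene (55 against 15.4). Of 19 markers of ovarian clear cell carcinoma, *STAT3* had 1 region of 18 against 5.1 tags. For these last 5 lists the intervals of the share all span the 4.47% of all genes. In density the extracellular matrix list, of median length 79.4 kb, had 5.28 regions per Mb (2.53 to 9.72), above the 2.10 of all genes. That interval spans the 2.92 of genes of 100 to 200 kb but not the 2.35 of genes of 50 to 100 kb. It also treats 10 regions of 3 genes as independent. The density intervals of the others among these 5 span the 2.10 of all genes.

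**Figure D4:**
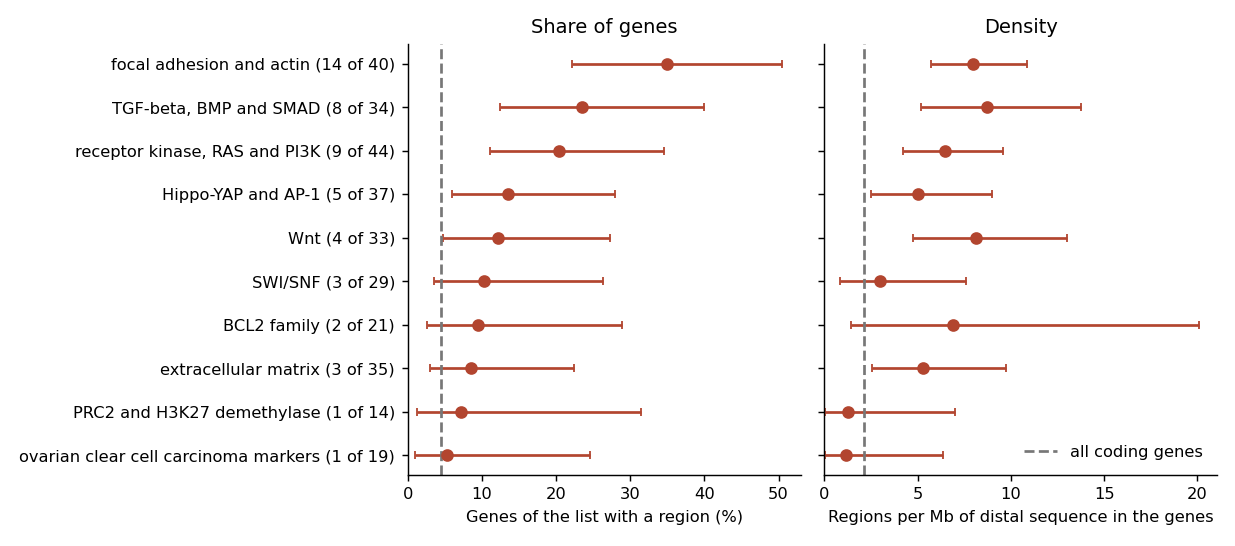
Left, the percent of the genes of each list that hold at least 1 of the regions, with Wilson 95% intervals. Right, regions per Mb of distal sequence in those genes, with Poisson 95% intervals, and in both panels a dashed line at all coding genes (4.47% and 2.10 per Mb). Focal adhesion and actin genes have the largest share, and the widest density interval is that of the BCL2 family, which rests on 3 regions.

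The AP-1 letters were found in 13.5% of the regions (11.9 to 15.2), in 9.74% (8.76 to 10.8) of 500 bp windows 1 kb to either side of them and in 9.06% (8.12 to 10.1) of windows 2 kb away. Distal parental-higher regions outside coding genes had 13.2% (11.6 to 14.9), and EIR-higher distal regions inside them 13.4% (10.1 to 17.6), so the AP-1 share did not separate the directions. Promoter regions within 1 kb of a TSS had 4.93%, and all regions of both lists 9.04%. By parental tags the share ran from 11.2% (8.59 to 14.4) at 15 to 18 tags to 12.2% at 19 to 21, 13.5% at 22 to 27 and 17.2% (13.9 to 21.2) at 28 or more, with 8.11% to 9.98% in windows 2 kb away, and the intervals of the lowest and highest class overlap. The share of regions with GC-box letters (GGGGCGG) also ran upward with tags, from 1.75% (0.890 to 3.42) in the lowest class to 7.14% (5.02 to 10.1) in the highest. HNF1 letters were found in 2.19% (1.19 to 3.98) of the lowest class and 5.42% (3.61 to 8.07) of the highest, with less in the class of 22 to 27 tags (1.35%). In windows 2 kb away the GC-box shares were 1.86% for the lowest class and 2.96% for the highest, and the HNF1 shares 2.41% and 1.72%. Regions with the AP-1 letters had a median fold of 3.07 (3.00 to 3.12) and 23 parental tags, and those without 3.10 (3.07 to 3.12) and 21 tags. AP-1 matches were denser within 500 bp of the centre, at 0.275 per kb, than at 1.5 to 2.5 kb from it, at 0.191 per kb. They did not peak at the centre itself. The 100 bp bins on either side of it had 0.252 per kb, and the highest bin, centred at 150 bp, had 0.381.

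TEAD letters (ACATTCC) were found in 9.21% (7.90 to 10.7), against 7.43% (6.58 to 8.38) and 6.91% (6.09 to 7.83) in the windows at 1 and 2 kb. The TEAD interval overlapped that of the windows at 1 kb and lay just above that at 2 kb. In all, 17 regions held both AP-1 and TEAD letters. Forkhead letters (TGTTTAC, 7.99%), RUNX letters (TGTGGTT, 8.54%) and GATA letters (AGATAAG, 6.70%) had intervals that overlapped those of the windows on either side. The GC-box letters of SP and KLF factors (GGGGCGG) were found in 3.99% (3.14 to 5.06), against 59.0% of promoter regions, 2.83% (2.31 to 3.45) of the windows 1 kb away and 2.27% (1.81 to 2.84) of those 2 kb away, and the ETS letters (CCGGAAG) in 1.60% against 9.67% of promoter regions. The CRE letters (TGACGTCA) were found in 4 regions. The HNF1 letters were found in 3.01% (2.28 to 3.96), against 2.52% and 2.36% in the windows at 1 and 2 kb. For STAT letters the shares were 1.84% (1.29 to 2.62), 1.35% (1.01 to 1.81) and 0.891% (0.621 to 1.28), so only the 2 kb interval lay apart. The CTCF letters (AGGGGGC) were found in 5.16% (4.19 to 6.34), near the 5.10% and 4.85% of the windows at 1 and 2 kb. EIR-higher distal regions inside coding genes had 11.8% (8.70 to 15.9). Those EIR-higher regions also had more ETS letters, at 4.79% (2.93 to 7.76) against 1.60% (1.09 to 2.33). The windows 1 and 2 kb from the parental-higher regions had ETS letters in 1.07% and 1.35%. Both motifs are rich in G and C, as are the EIR-higher regions (49.2% against 42.6%), and the part of base composition was not tested. Intervals of the other motifs overlapped between these directions. The median G and C content of the central 500 bp was 42.6% (42.2 to 43.0), against 41.8% (41.4 to 42.0) in windows 1 kb away, 42.2% (41.6 to 42.4) in windows 2 kb away, 44.6% in distal regions outside coding genes, 49.2% in EIR-higher distal regions inside them and 73.0% at promoters. The regions were thus nearer in base composition to the sequence around them, which differed slightly at 1 kb, than to promoters.

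**Figure D5:**
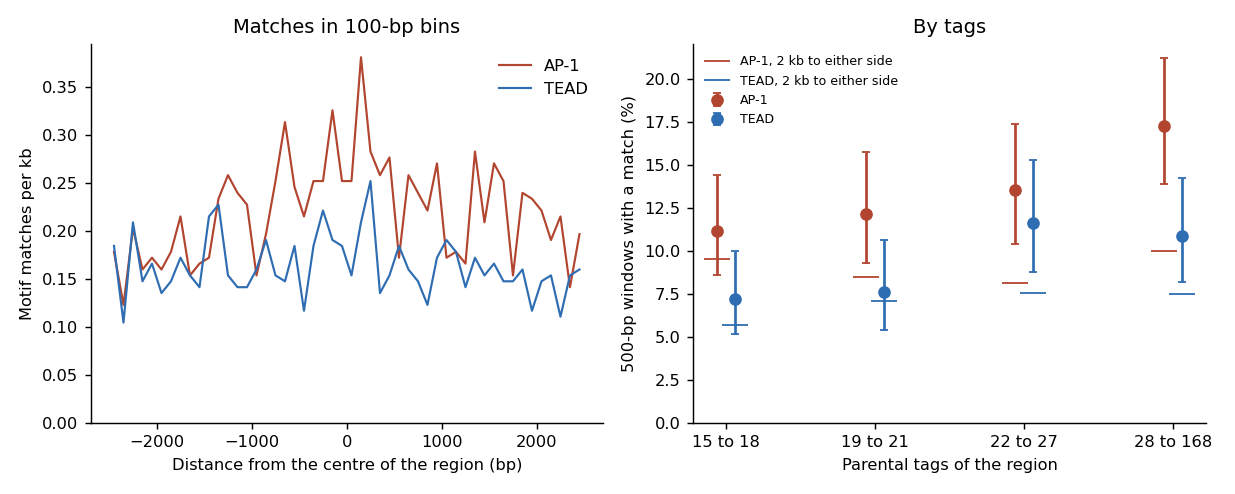
Left, AP-1 (red) and TEAD (blue) matches per kb in 100 bp bins, by distance from the centre of the 1628 regions. Right, percent of the regions with a match in the central 500 bp, by parental tags, with Wilson 95% intervals, and horizontal ticks for windows 2 kb to either side of the same regions. AP-1 runs from 11.2% in the weakest class to 17.2% in the strongest, and its ticks stay under 10%.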

How the data were processed

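The authors aligned the reads of 2 anti-Flag ChIP libraries to hg19 with bowtie (version 0.12.9 in the processing notes of the submitters) and ran the histone-style region caller of HOMER in both directions, each time with the other library as control, at an FDR of 5%. The deposited parental-higher list gives a count of parental tags per region, the EIR signal scaled by the authors to the parental total, their ratio (fold) and a Poisson p-value, which is at most 9.94e-05 in the regions described. The deposited score and clonal columns were not used.

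The value of 1 EIR tag, 0.733 parental tags, was read from the spacing of the scaled tags (98.3% of distinct values of at least 5 were whole multiples within 0.06). Folds are parental tags over whole EIR tags times this step. TSSs, genes and canonical transcripts came from GENCODE release 44 lifted to GRCh37, which has the coordinates of hg19, and sequences from that assembly. Distance is from the nearest edge, place in the gene from the centre, and eligible sequence is all non-N bases over 5250 bp from any TSS, so that a region of 500 bp centred there is distal. Intervals are Clopper-Pearson (folds), Wilson (shares), exact Poisson (densities) and order-statistic (medians). Statistics were tested on simulated data.

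The regions, gene lists and motifs were chosen with earlier results of these data known. The text names the 5 regions with the largest fold and the 5 with most tags, the 8 genes with most regions, the 5 densest with at least 4 regions, up to 3 genes per list, the nearest regions to the distance limit (1 of them is not reported here), and the largest groups. The smallest folds and the densities by distance were added after the data were seen. Alternatives were a fold of at least 4, a p-value of at most 1e-06, a distance of 10 kb, whole regions inside the gene, autosomes, the EIR library scaled 1.5 times higher, merging within 1 kb and other motif windows. Chromosomes 10 and Y and the other experiments of the study were not analysed here. Sequences were read with samtools 1.23.1 and pysam 0.24.0, intervals computed with scipy 1.17.1 and tables and figures made with pandas 2.3.3, numpy 2.4.6 and matplotlib 3.10.9 under Python 3.11.15.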

Additional observations from a re-analysis of the deposited data

How the results depend on the processing

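With a fold of at least 4, 273 regions in 252 genes remained, 33.3% of them in intron 1, with a median fold of 4.77 and AP-1 letters in 9.16%. With a p-value of at most 1e-06, 593 regions in 440 genes were left with a median fold of 3.86. With the EIR library scaled 1.5 times higher, 350 regions in 299 genes were left, 32.6% in intron 1, with a median fold of 2.94. The AP-1 share was 4.61% in the central 200 bp and 15.7% in the whole region, windows that differ in length. A limit of 10 kb, whole regions inside the gene, autosomes and merging within 1 kb moved none of these 5 values by more than 1.5 times for the counts or beyond its interval for the others, and in all 23 alternative values stayed so and 14 did not. An alternative can remove regions but not add any, so shorter lists were fixed in advance for the fold and p-value limits. The scaling is not such a limit. With no input and 1 library per condition the right scale is not known, and most regions were lost under the alternative one. The shares of parental-higher regions were not computed under it. No paired analysis was possible because each condition has 1 library. Regions near 15 tags can be seen only where the fold is large, so a smaller difference at such sites was not detectable at this depth.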
